A study of Mus musculus with 9 samples.

Results

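The 10 genes described here encode the proximal machinery that carries a signal from the B cell antigen receptor into the cell, in germinal center B cells of the mouse. They were listed by name and role, with no threshold on a measured value: Cd79a, Cd79b, Syk, Lyn, Blk, Btk, Blnk, Plcg2, Inpp5d and Ptpn6, 10 of the 23700 entries in each gene table. All 10 were found once in every table, and all 10 passed the filter on low values. RNA of 9 libraries was measured, 3 each from Foxo1-deficient cells, wild-type dark zone (DZ) cells and wild-type light zone (LZ) cells, and the study compared these 3 groups.

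The Foxo1-deficient cells had the genotype Foxo1(f/f) and the DZ and LZ cells the genotype Foxo1(+/+), on the C57BL/6 background. Every group also carried ERT2cre(KI/+), a recombinase that tamoxifen activates, and B1-8hi(KI/+), an antibody gene knock-in that gives B cells a receptor for the hapten NP. Equal parts of both kinds of B cell were transferred together into C57BL/6 mice, which were immunized with NP-CGG in alum on day 0 and received oral tamoxifen on days 7, 8 and 9. About 10000 cells per library were sorted from the spleen on day 12 as B220+ NP+ GL7+ CD38- cells. Wild-type cells were split into DZ cells (CD86lo CXCR4hi) and LZ cells (CD86hi CXCR4lo), whereas the Foxo1-deficient cells were sorted with no zone gate. Genotype and zone gate therefore cannot be told apart in any comparison with the Foxo1-deficient cells. The genotype label of the Foxo1(f/f) cells is CD45.1/2, but their sort gate is written as CD45.2-, and this was not settled. The labels do not say which part of Foxo1 is deleted. Separate mice are not named for the replicates. The p-values therefore reflect only how far samples spread within groups, possibly for technical reasons, and the main fit pools this spread over all 3 groups.

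The B cell antigen receptor is a membrane antibody held by the signalling chains CD79a and CD79b. After antigen binding, Src family kinases phosphorylate tyrosines in these chains, Syk docks there and phosphorylates the adaptor Blnk, and Blnk brings Btk and Plcg2 together so that Plcg2 releases calcium and diacylglycerol signals. The phosphatases SHIP-1 (Inpp5d) and SHP-1 (Ptpn6) oppose these steps, and germinal center B cells are known for dampened antigen receptor signalling with high phosphatase activity.

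Of the 10 genes, Syk fell and Inpp5d rose in Foxo1-deficient cells relative to DZ cells, and the other 8 did not pass the test. Thus 2 of 10 passed, where 2.85% of the 10004 tested genes passed in either direction, 2.1% being higher and 0.75% lower. Between Foxo1-deficient and LZ cells 0 of 10 passed, where 1.56% of all tested genes did (0.69% higher, 0.87% lower), and between DZ and LZ cells 0 of 10 passed, where 1.94% did (0.56% higher, 1.38% lower). At an unadjusted p under 0.05 there were 4 of the 10 between Foxo1-deficient and DZ cells (Syk, Plcg2, Inpp5d and Ptpn6), where 16.3% of all tested genes had such a p. There were 3 between Foxo1-deficient and LZ cells (Syk, Plcg2 and Inpp5d), where 13.4% had one, and 2 between DZ and LZ cells (Inpp5d and Ptpn6), near the 15.4% of all tested genes. The 10 genes were chosen with earlier results of these data known, so these shares are descriptive. The test was limma on log2(FPKM + 1), where FPKM counts fragments per kilobase, scaled by library, with Benjamini-Hochberg adjusted p-values over all tested genes, two-sided, and a threshold of 0.05. Changes are log2 differences on that scale, with positive values where the group named first was higher, and they are given with 95% intervals. The 3 Foxo1-deficient libraries enter both comparisons with wild-type cells, and each wild-type group also enters 2 comparisons, so the comparisons are not independent.

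Foxo1, the targeted gene, was at 3.01, 1.79 and 0.808 FPKM in Foxo1-deficient libraries, against 24.5, 19.5 and 19.1 FPKM in DZ and 14.8, 18.7 and 22.1 FPKM in LZ libraries. It fell by 3.01 on the log2 scale relative to DZ (adjusted p = 0.000542) and by 2.82 relative to LZ (adjusted p = 0.00113). The sort gene Cd86 averaged 56.5 FPKM in Foxo1-deficient, 15.8 in DZ and 51.7 in LZ libraries, and Cxcr4 averaged 22.3 FPKM in Foxo1-deficient, 72.5 in DZ and 33.3 in LZ libraries. Entries above 0 numbered 11229 to 12495 per library, and replicates correlated across tested genes, which are not independent replicates, at Pearson's r of 0.868 to 0.915 in Foxo1-deficient, 0.938 to 0.942 in DZ and 0.905 to 0.912 in LZ cells. The median change over all tested genes was 0.12 between Foxo1-deficient and DZ cells, -0.02 between Foxo1-deficient and LZ cells and -0.15 between DZ and LZ cells. Centring each library on its median moved these medians to -0.06, -0.01 and 0.04, and the share of passing genes that were higher moved to 44.6% from 73.7% between Foxo1-deficient and DZ cells and to 56.8% from 28.9% between DZ and LZ cells. Scaling by the summed FPKM of 4 B lineage genes, chosen after seeing the data, moved the medians further, to -0.36, -0.10 and 0.25, and those shares to 8.56% and 88.9%.

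Macrophage, neutrophil and erythroid markers were higher in all Foxo1-deficient libraries than in any wild-type library, as sums over each list. The 14 measured of 15 listed macrophage and monocyte markers summed to 123 to 248 FPKM in Foxo1-deficient, 7.34 to 17.6 in DZ and 11.1 to 21.3 in LZ libraries, and 11 of them averaged at least 1 FPKM in Foxo1-deficient, 2 in DZ and 3 in LZ cells. Lyz2, which encodes lysozyme, was at 51.6, 61.2 and 127 FPKM in Foxo1-deficient libraries and at most at 0.174 in the wild-type libraries. Csf1r, the receptor that defines macrophages, was at 3.42, 4.53 and 6.37 FPKM in Foxo1-deficient libraries and listed at 0 in all wild-type libraries, and Cd14 was listed at 0 in all 9. The 9 measured of 10 neutrophil markers summed to 79.7 to 133 FPKM in Foxo1-deficient, 1.92 to 4.04 in DZ and 3.19 to 5.82 in LZ libraries, with Elane and Mpo listed at 0 throughout. Most of the Foxo1-deficient sum came from S100a8 (21.1, 54.4 and 44.9 FPKM) and S100a9 (52.5, 56.6 and 80.5 FPKM). Camp and Ngp were above 0 only in Foxo1-deficient replicate 2, and Ltf only in replicates 2 and 3. The 7 measured of 9 erythroid markers summed to 172 to 553, 13.2 to 21.7 and 21.9 to 44.4 FPKM in Foxo1-deficient, DZ and LZ libraries. The 7 germinal center markers summed to 489 to 519 FPKM in Foxo1-deficient, 397 to 501 in DZ and 371 to 431 in LZ libraries, each gene averaging at least 1 FPKM in every group. Plasma cell markers, 6 measured of 7, summed to 233 to 355 FPKM in Foxo1-deficient, 189 to 291 in DZ and 127 to 151 in LZ libraries. The 10 T cell markers summed to 12.8 to 18.3 FPKM in Foxo1-deficient, 7.49 to 12.8 in DZ and 16.4 to 19.2 in LZ libraries, most of it from Lcp2, with Cd3e, Cd3g and Cd4 listed at 0 in every library. The 6 dendritic cell markers summed to 14.3 to 18.2 FPKM in Foxo1-deficient, 6.58 to 11.4 in DZ and 10.1 to 25.4 in LZ libraries, and NK cell and platelet sums were at most 0.36 FPKM in Foxo1-deficient, 0.11 in DZ and 1.2 in LZ libraries.

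**Figure D1:**
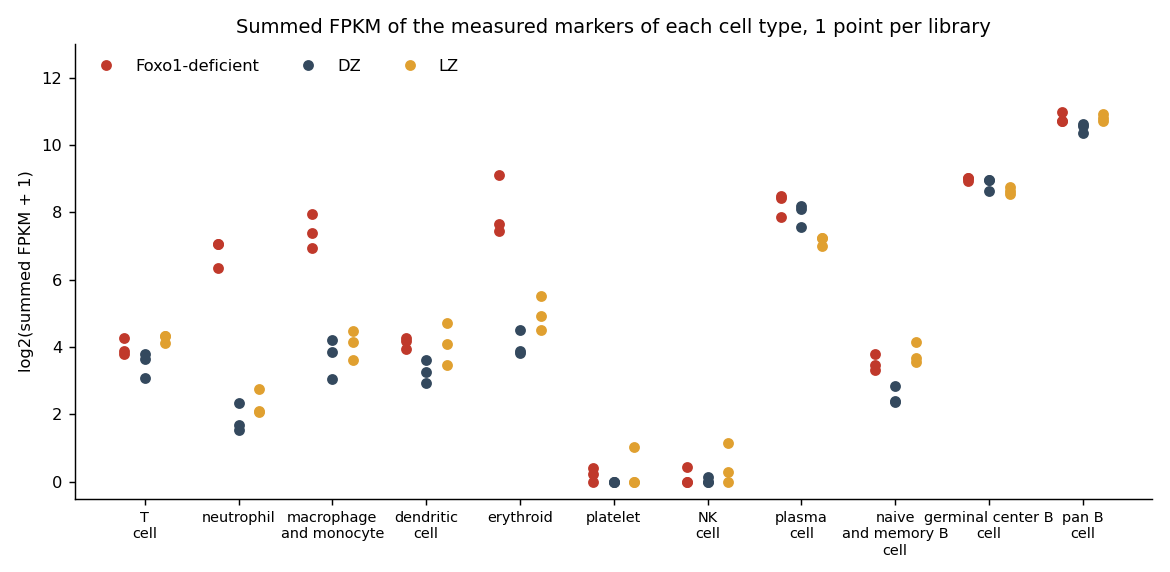
Summed FPKM of each marker list, as log2(sum + 1) on the vertical axis, with 1 point per library in Foxo1-deficient, DZ and LZ cells. The macrophage, neutrophil and erythroid sums of all 3 Foxo1-deficient libraries lie above those of all 6 wild-type libraries, and the macrophage sum is 123 to 248 FPKM in Foxo1-deficient cells against 7.34 to 21.3 FPKM in wild-type cells.

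Promoter sequences are printed for the genes that passed a test, since Foxo1 is a forkhead transcription factor and blood cell genes are often bound by ETS factors. RefSeq (GRCm38.p6) gave 8 promoter entries for 7 of the 10 genes: Cd79a, Syk with 2 starts, Btk, Blnk, Plcg2, Inpp5d and Ptpn6. Each entry is 300 bases, from 250 before to 50 after the start. Capitals mark matches, on either strand, of the forkhead letters GTAAACA or one of the variants of them (the form ATAAACA, the form GCAAACA and the form ACAAACA), or of the ETS letters GGAAGT. The lines hold Syk start 1 at chr13:52583187-52583486 (plus strand), Syk start 2 at chr13:52596632-52596931 (plus strand) and Inpp5d at chr1:87620062-87620361 (plus strand).
Syk start 1: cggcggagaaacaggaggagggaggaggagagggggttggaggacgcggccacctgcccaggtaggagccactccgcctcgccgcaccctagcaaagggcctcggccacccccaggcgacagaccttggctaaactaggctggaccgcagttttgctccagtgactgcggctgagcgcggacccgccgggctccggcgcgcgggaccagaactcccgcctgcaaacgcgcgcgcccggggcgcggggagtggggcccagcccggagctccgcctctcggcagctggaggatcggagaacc
Syk start 2: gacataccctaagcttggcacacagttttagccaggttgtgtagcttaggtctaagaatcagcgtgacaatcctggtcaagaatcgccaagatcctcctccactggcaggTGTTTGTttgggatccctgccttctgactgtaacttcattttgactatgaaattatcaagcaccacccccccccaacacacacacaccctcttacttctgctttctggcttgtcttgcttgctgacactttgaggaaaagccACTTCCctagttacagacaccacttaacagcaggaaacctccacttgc
Inpp5d: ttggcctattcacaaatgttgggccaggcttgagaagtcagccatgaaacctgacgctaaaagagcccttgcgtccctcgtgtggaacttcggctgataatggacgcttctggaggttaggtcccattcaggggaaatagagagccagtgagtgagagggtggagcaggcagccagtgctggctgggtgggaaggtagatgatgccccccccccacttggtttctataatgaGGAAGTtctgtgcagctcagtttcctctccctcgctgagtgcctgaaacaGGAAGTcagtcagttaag

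The Foxo consensus GTAAACA, which 3.65% of 32851 RefSeq promoters hold, was in none of the 8 entries. A match to any of the 4 forkhead forms, of which GTAAACA is one, stands in 17.71% of all promoters and was found once in Syk start 2 and at 2 places in Blnk. GGAAGT stands in 23.77% of all promoters. It was found at 2 places each in Inpp5d, Ptpn6 and Blnk and at 1 place each in Cd79a and Syk start 2, and it was not found in Syk start 1, Btk or Plcg2. Syk start 1 is GC rich at 72.0%, whereas Syk start 2 has 48.0% GC and Inpp5d 53.7%. The letters were chosen after the sequences had been seen, a match is a description and not a binding site, and the deposited values sum over the starts of a gene, so they do not say which Syk start was used.

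Cd79a and Cd79b, the signalling chains of the receptor, were the most abundant of the 10 genes in every group. Cd79a (mm9 chromosome 7, 25682530 to 25687216) was at 457, 389 and 349.9 FPKM in Foxo1-deficient, 374, 383 and 317 in DZ, and 496, 408 and 373 in LZ libraries. The 3 groups overlapped, with changes of 0.15 relative to DZ (-0.18 to 0.48, adjusted p = 0.670) and -0.09 relative to LZ (-0.42 to 0.24, adjusted p = 0.846) in Foxo1-deficient cells. Cd79b (mm9 chromosome 11, 106172655 to 106175843) was at 574, 426 and 456 FPKM in Foxo1-deficient, 510.4, 529.9 and 434 in DZ, and 572, 507 and 571 in LZ libraries. Its groups overlapped as well, and the changes were -0.02 relative to DZ (-0.34 to 0.29, adjusted p = 0.952) and -0.19 relative to LZ (-0.50 to 0.12, adjusted p = 0.610). Between DZ and LZ cells, Cd79a differed by -0.24 (-0.58 to 0.09, adjusted p = 0.502) and Cd79b by -0.16 (-0.48 to 0.15, adjusted p = 0.653). For both chains the deposited FPKM lay above the upper bound of its own deposited interval in all 9 libraries, and putting the midpoint of that interval in its place changed no call of the 10 genes.

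The ratio of Cd79b to Cd79a was 1.26, 1.09 and 1.30 in Foxo1-deficient libraries, against 1.37, 1.38 and 1.37 in DZ and 1.15, 1.25 and 1.53 in LZ libraries. The DZ libraries lay close together and above all 3 Foxo1-deficient libraries. The log2 difference was -0.18 relative to DZ, with an exact two-sided permutation p of 0.1, which is the smallest that 3 libraries against 3 can give, and an adjusted p of 0.3 over 9 such ratio tests.

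Lyn and Blk are the Src family kinases that phosphorylate the receptor chains, and Lyn also starts inhibitory signals. Lyn (mm9 chromosome 4, 3605268 to 3718759, where it overlaps 6330407A03Rik) was at 58.7, 43.0 and 56.7 FPKM in Foxo1-deficient, 61.7, 50.5 and 49.6 in DZ, and 42.6, 51.6 and 52.4 in LZ libraries. Its groups overlapped throughout, with changes of -0.04 relative to DZ (-0.42 to 0.35, adjusted p = 0.943), 0.10 relative to LZ (-0.28 to 0.48, adjusted p = 0.849) and 0.14 between DZ and LZ cells (-0.24 to 0.52, adjusted p = 0.777). Blk (mm9 chromosome 14, 63991674 to 64036024) was at 44.6, 40.6 and 43.3 FPKM in Foxo1-deficient, 47.6, 54.3 and 40.2 in DZ, and 50.6, 51.4 and 58.2 in LZ libraries. All 3 Foxo1-deficient libraries lay below all 3 LZ libraries, but the change of -0.31 (-0.65 to 0.03, adjusted p = 0.418) did not pass, and 17.5% of tested genes had groups that did not overlap in this comparison. Relative to DZ, Blk differed by -0.13 (-0.48 to 0.21, adjusted p = 0.723), and between DZ and LZ cells by -0.18 (-0.52 to 0.16, adjusted p = 0.662).

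The ratio of Lyn to Blk was 1.32, 1.06 and 1.31 in Foxo1-deficient, 1.30, 0.931 and 1.23 in DZ, and 0.842, 1.00 and 0.900 in LZ libraries. Every Foxo1-deficient library lay above every LZ library. The log2 difference was 0.42 relative to LZ (exact permutation p = 0.1, adjusted p = 0.3), 0.10 relative to DZ (exact permutation p = 0.5, adjusted p = 0.643) and 0.32 between DZ and LZ cells (exact permutation p = 0.2, adjusted p = 0.36).

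Syk, the kinase that docks on the phosphorylated chains, fell in Foxo1-deficient cells relative to DZ. Syk (mm9 chromosome 13, 52678806 to 52744161) was at 70.9, 55.0 and 66.5 FPKM in Foxo1-deficient, 122, 112 and 98.3 in DZ, and 87.7, 114 and 104 in LZ libraries. All 3 Foxo1-deficient libraries lay below all 6 wild-type libraries, while DZ and LZ overlapped. The change was -0.78 (SE 0.16, -1.13 to -0.43, adjusted p = 0.0243) relative to DZ, with means of 64.1 ± 8.23 FPKM in Foxo1-deficient and 111 ± 12.0 FPKM in DZ libraries (SD, n = 3 each), a ratio of 0.578. Relative to LZ, at 102 ± 13.1 FPKM, the change was -0.66 (-1.01 to -0.31) and missed the threshold (adjusted p = 0.0755). The difference between those changes equals the DZ to LZ difference, which was 0.13 (-0.22 to 0.48, adjusted p = 0.780). In bulk RNA, fewer cells of a type and less RNA per cell cannot be told apart.

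The Syk call relative to DZ was lost without Foxo1-deficient replicate 2 (adjusted p = 0.1005), Foxo1-deficient replicate 3 (0.0609), DZ replicate 1 (0.107) or DZ replicate 2 (0.0941), and with no filter on low values (0.0850), while its change stayed between -0.87 and -0.68 over all 9 omissions of 1 library. Under B lineage scaling it was -1.35 (adjusted p = 0.000412). Syk is also expressed by myeloid cells, whose markers were higher in the Foxo1-deficient libraries, in which Syk was lower. The part of those cells in the Syk values was not tested.

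**Figure D2:**
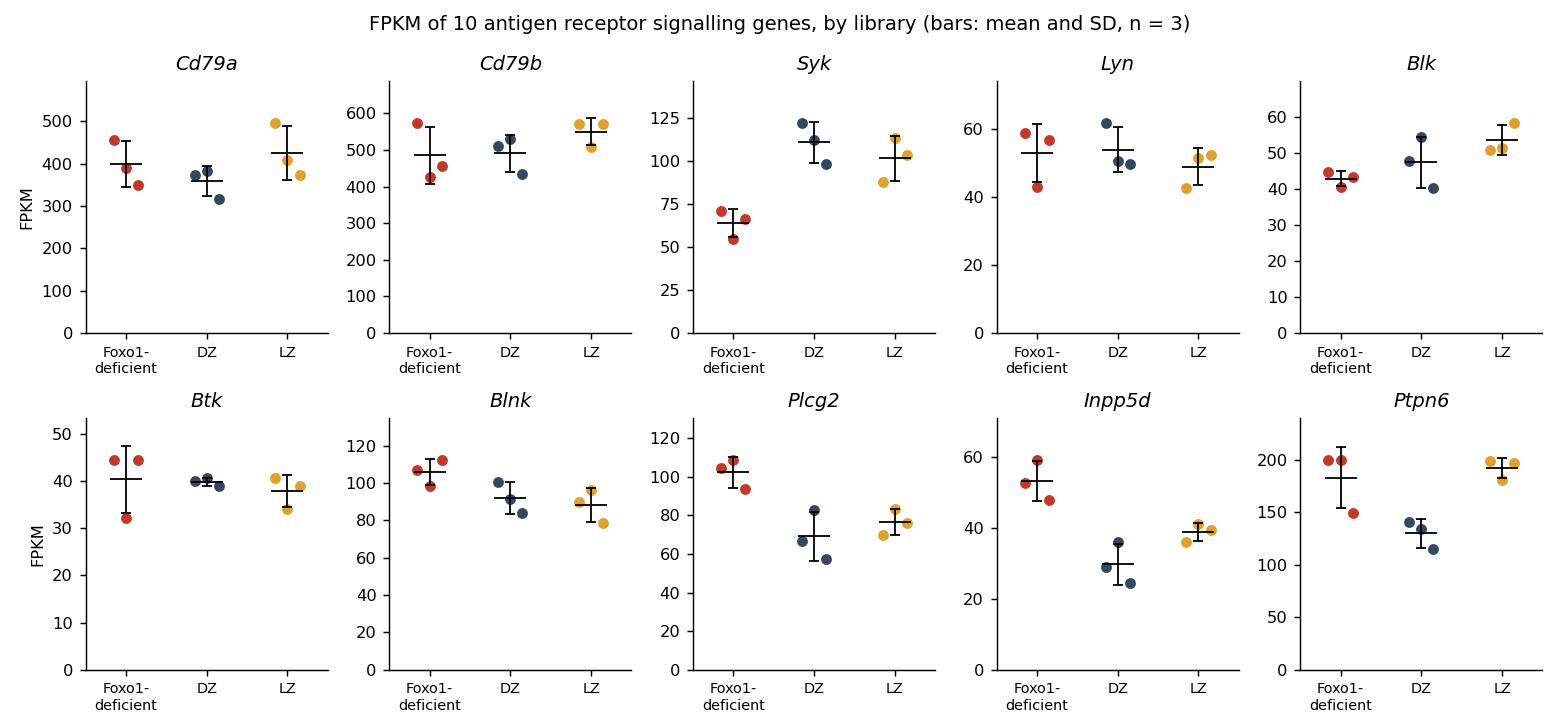
FPKM of the 10 genes on the vertical axis, 1 panel per gene from 0, with 1 point per library and bars for the mean and SD (n = 3) of Foxo1-deficient, DZ and LZ cells. Syk is lower (55.0 to 70.9 FPKM in Foxo1-deficient against 98.3 to 122 in DZ libraries) and Inpp5d higher (47.7 to 59.2 against 24.3 to 35.9), and the panels of Cd79a, Cd79b, Lyn and Btk overlap between groups.

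Btk, the Tec family kinase that activates Plcg2, had group means within a narrow span, from 37.9 to 40.3 FPKM. Btk (mm9 chromosome X, 131076880 to 131117679) was at 44.4, 32.1 and 44.5 FPKM in Foxo1-deficient, 40.0, 40.6 and 38.9 in DZ, and 40.7, 34.1 and 38.9 in LZ libraries. The lowest and 2 highest of the 9 values were all Foxo1-deficient, and the changes were 0.00 relative to DZ (-0.37 to 0.37, adjusted p = 0.997), 0.08 relative to LZ (-0.30 to 0.45, adjusted p = 0.887) and 0.08 between DZ and LZ cells (-0.30 to 0.45, adjusted p = 0.894).

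Blnk, the adaptor that brings Btk and Plcg2 to Syk (mm9 chromosome 19, 41003417 to 41069025), was at 107, 98.4 and 112 FPKM in Foxo1-deficient, 101, 91.2 and 83.8 in DZ, and 89.7, 96.1 and 78.4 in LZ libraries. The Foxo1-deficient libraries overlapped with DZ and lay above all LZ libraries, a comparison in which 17.5% of tested genes had groups that did not overlap. The changes, 0.27 relative to LZ (-0.04 to 0.57, adjusted p = 0.437), 0.20 relative to DZ (-0.10 to 0.51, adjusted p = 0.516) and 0.06 between DZ and LZ cells (-0.25 to 0.37, adjusted p = 0.895), did not pass.

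Plcg2, the phospholipase that produces the calcium and diacylglycerol messengers (mm9 chromosome 8, 120022191 to 120159042), was at 104, 109 and 93.5 FPKM in Foxo1-deficient, 66.6, 83.0 and 57.6 in DZ, and 69.9, 83.5 and 76.0 in LZ libraries. Every Foxo1-deficient library lay above every wild-type library, in a comparison with DZ in which 23.1% of tested genes had groups that did not overlap. The changes were 0.57 relative to DZ (0.22 to 0.93, adjusted p = 0.0962) and 0.42 relative to LZ (0.06 to 0.77, adjusted p = 0.279), so neither passed, and DZ and LZ differed by -0.16 (-0.51 to 0.20, adjusted p = 0.719). Over the scalings tried, the change relative to DZ ran from 0.01 under B lineage scaling (adjusted p = 0.982) to 0.59 under quantile normalization, where it passed (adjusted p = 0.0276).

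Inpp5d, which encodes the lipid phosphatase SHIP-1 that removes the phosphoinositide docking sites of Btk and Plcg2, rose in Foxo1-deficient cells relative to DZ. Inpp5d (mm9 chromosome 1, 89516887 to 89617083) was at 52.6, 59.2 and 47.7 FPKM in Foxo1-deficient, 28.8, 35.9 and 24.3 in DZ, and 36.0, 41.1 and 39.3 in LZ libraries. The 3 groups did not overlap, with Foxo1-deficient libraries highest and DZ libraries lowest. The change relative to DZ was 0.83 (SE 0.18, 0.45 to 1.22, adjusted p = 0.0297), with means of 53.2 ± 5.73 FPKM in Foxo1-deficient and 29.7 ± 5.83 FPKM in DZ libraries (SD, n = 3 each), a ratio of 1.79. Relative to LZ, at 38.8 ± 2.61 FPKM, the change was 0.44 (0.05 to 0.83, adjusted p = 0.296) and did not pass. The difference between DZ and LZ cells, which is also the difference between those changes, was -0.39 (-0.78 to -0.00, adjusted p = 0.318), and 22.3% of tested genes had groups that did not overlap there.

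The Inpp5d call was lost without any 1 of Foxo1-deficient replicate 1 (adjusted p = 0.0873), 2 (0.117) or 3 (0.0556) and DZ replicate 1 (0.105) or 3 (0.0911), with no filter on low values (0.0838), when only the compared groups were fitted (0.0680) and when libraries were scaled by 4 B lineage genes (a change of 0.28, 0.290). The change lay between 0.70 and 0.97 over all 9 omissions of 1 library. Myeloid cells also express Inpp5d, Plcg2 and Ptpn6, and their part in these values was not tested. The library with the highest macrophage sum, Foxo1-deficient replicate 3 at 248 FPKM, had the lowest Inpp5d, Plcg2 and Ptpn6 of the 3 Foxo1-deficient libraries. Ptprc (220 FPKM) and Lat2 (87.8 FPKM), which myeloid cells also express, were instead at their highest in that library. That library also had the most RNA of the erythroid marker Beta-s (321 FPKM, against 110 and 87.5 in replicates 1 and 2). An order of 3 libraries is no test of the part of any cell type.

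Ptpn6, which encodes the tyrosine phosphatase SHP-1 (mm9 chromosome 6, 124670736 to 124688727), was at 200.1, 199.6 and 149 FPKM in Foxo1-deficient, 141, 134 and 115 in DZ, and 199, 181 and 197 in LZ libraries. The DZ libraries were the lowest 3 of the 9, and Foxo1-deficient and LZ libraries overlapped. Groups did not overlap for 23.1% of tested genes between Foxo1-deficient and DZ cells and for 22.3% between DZ and LZ cells. None of the changes passed: 0.48 relative to DZ (0.15 to 0.81, adjusted p = 0.129), -0.08 relative to LZ (-0.41 to 0.25, adjusted p = 0.858) and -0.57 between DZ and LZ cells (-0.90 to -0.24, adjusted p = 0.0949). The ratio of Inpp5d to Ptpn6 was 0.263, 0.296 and 0.320 in Foxo1-deficient, 0.205, 0.268 and 0.212 in DZ, and 0.181, 0.227 and 0.1995 in LZ libraries. All Foxo1-deficient libraries exceeded all LZ libraries in this ratio, by 0.52 on the log2 scale (exact permutation p = 0.1, adjusted p = 0.3), while relative to DZ they overlapped (0.35, exact permutation p = 0.2, adjusted p = 0.36).

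**Figure D3:**
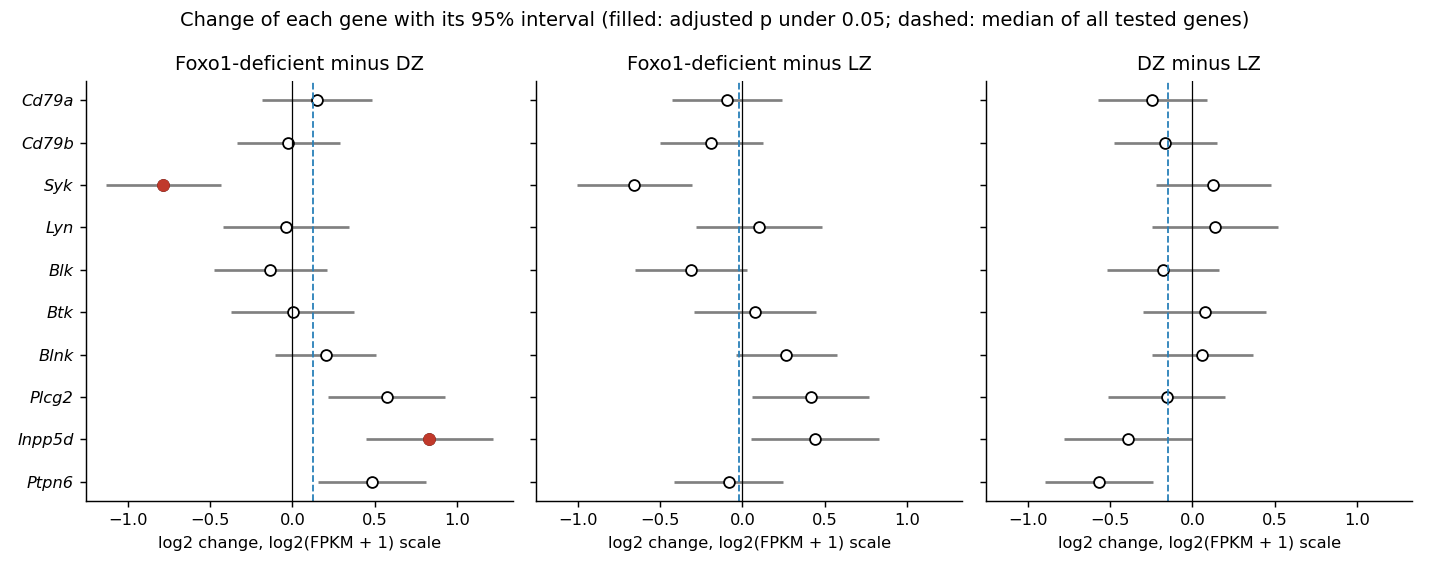
Log2 change of each of the 10 genes on the horizontal axis with its 95% interval, in 1 panel per comparison, filled where the adjusted p is under 0.05, with a dashed line at the median of all tested genes. Only Syk (-0.78) and Inpp5d (0.83) are filled, both in the panel of Foxo1-deficient minus DZ cells.

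**Figure D4:**
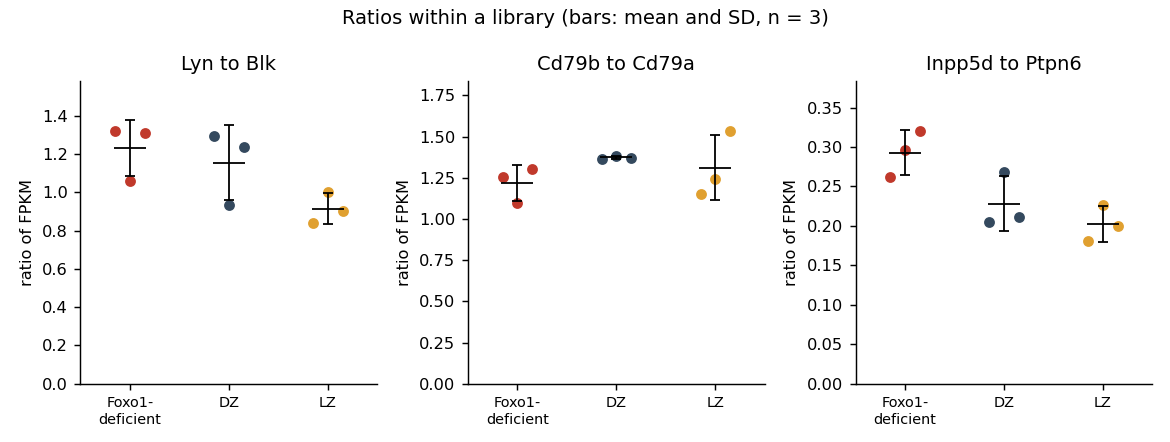
Ratio of FPKM within a library on the vertical axis for Lyn to Blk, Cd79b to Cd79a and Inpp5d to Ptpn6, with 1 point per library and bars for the mean and SD (n = 3) of Foxo1-deficient, DZ and LZ cells. The Lyn to Blk and Inpp5d to Ptpn6 ratios of all Foxo1-deficient libraries lie above those of all LZ libraries.

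FPKM is scaled by transcript length, so levels can be roughly ordered between genes. The deposited FPKM lay above its own interval in 9 libraries for Cd79a and Cd79b, 2 for Blnk and 0 for Plcg2. This offset differs between genes, so the order of genes at close levels, such as Blnk and Plcg2, is uncertain. Cd79b, Cd79a and Ptpn6 were in places 1, 2 and 3 in every group. In Foxo1-deficient cells there followed Blnk (106 ± 7.03 FPKM), Plcg2 (102 ± 7.88), Syk (64.1), Inpp5d (53.2), Lyn (52.8 ± 8.52), Blk (42.8 ± 2.04) and Btk (40.3 ± 7.12). In this order Cd79b overlapped with Cd79a, Blnk with Plcg2, and each of Syk, Inpp5d, Lyn, Blk and Btk with its neighbour. In DZ cells the order went on with Syk (111), Blnk (91.9 ± 8.42), Plcg2 (69.1 ± 12.9), Lyn (54.0 ± 6.75), Blk (47.4 ± 7.02), Btk (39.8 ± 0.859) and Inpp5d (29.7). Neighbours overlapped there except Cd79b with Cd79a, Cd79a with Ptpn6, Blnk with Plcg2 and Btk with Inpp5d. In LZ cells Syk (102), Blnk (88.1 ± 9.00), Plcg2 (76.5 ± 6.79), Blk (53.4 ± 4.18), Lyn (48.9 ± 5.42), Inpp5d (38.8) and Btk (37.9 ± 3.42) followed. The neighbours that did not overlap in LZ cells were Cd79b and Cd79a, Cd79a and Ptpn6, Ptpn6 and Syk, Plcg2 and Blk, and Lyn and Inpp5d. Inpp5d was thus in place 7 of 10 in Foxo1-deficient cells and place 10 in DZ cells, and Syk was in place 6 in Foxo1-deficient cells and place 4 in DZ cells.

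The fragments implied by the deposited intervals were lowest for Btk (328 to 418 per library), and they were 1202 to 3032 for Syk and 592 to 1327 for Inpp5d. The expected counting SD was at most 5.52% for any of the 10 genes, against a spread between replicates of 2.16% to 19.6%. The spread was under the highest counting SD of the gene for Btk in DZ cells (2.16% against 5.52%) and Blk in Foxo1-deficient cells (4.77% against 5.40%). The genes whose profiles over the 9 libraries lay nearest to that of Syk, by the root mean square difference of centred log2(FPKM + 1) values among 10003 genes, were St6gal1 (0.094), Uros (0.157) and Ugcg (0.161). Nearest to Inpp5d were Tbc1d23 (0.104) and Plcg2 (0.122).

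Around the receptor, 72 other genes of the pathway were listed by role, of which 71 were in the tables and 65 were tested. The list was chosen with earlier results of these data known, so the shares below are descriptive and do not test the pathway. Relative to DZ, 9 were higher and 1 was lower in Foxo1-deficient cells (15.4% of 65, where 2.85% of all tested genes passed), with a median change of 0.32 against 0.12 over all tested genes. Under B lineage scaling 5 were higher and 7 lower. Relative to LZ, 0 were higher and 1 was lower (1.54%, where 1.56% of all tested genes passed), with a median of 0.14 against -0.02. Between DZ and LZ cells, 0 were higher and 6 lower (9.23%, where 1.94% of all tested genes passed), with a median of -0.20 against -0.15.

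Coreceptors and inhibitory receptors held 3 of the 9 genes that rose. Cr2, the complement receptor that lowers the threshold for antigen, was at 76.3, 69.6 and 83.8 FPKM in Foxo1-deficient, 19.3, 16.3 and 16.3 in DZ, and 47.4, 55.7 and 42.6 in LZ libraries, with changes of 2.08 relative to DZ (adjusted p = 0.000115) and -1.43 between DZ and LZ cells (adjusted p = 0.00197). Cd22, an inhibitory lectin that recruits SHP-1, was at 199, 178 and 166 FPKM in Foxo1-deficient, 79.6, 83.8 and 69.2 in DZ, and 177, 196 and 156 in LZ libraries. It rose by 1.21 relative to DZ (adjusted p = 0.00143), and the change between DZ and LZ cells was -1.17 (adjusted p = 0.00283). Siglecg, a related inhibitory lectin, averaged 105 ± 24.8 FPKM in Foxo1-deficient and 36.8 ± 8.85 FPKM in DZ libraries, a change of 1.48 (adjusted p = 0.00846) that did not pass with no filter on low values (0.0871). Cd72, an inhibitory receptor, was lower in Foxo1-deficient (22.7 ± 8.52 FPKM) than in LZ libraries (60.7 ± 17.3; -1.40, adjusted p = 0.0425). Its call was lost without any 1 library except Foxo1-deficient replicate 1 and LZ replicate 2 (0.0509 to 0.163).

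Among regulators of Src and Syk kinases, Ptprc, which encodes the CD45 phosphatase that activates Src kinases, averaged 213 ± 9.31 FPKM in Foxo1-deficient and 112 ± 8.69 in DZ libraries (0.92, adjusted p = 0.00291), a call that scaling by 4 B lineage genes ended (0.0663). CD45 is also named in the genotype label and the sort gate of the Foxo1-deficient cells. Whether this bears on the Ptprc values was not tested. Ptprc is expressed by all white blood cells, and it was also lower in DZ than in LZ libraries (167 ± 11.5 FPKM; -0.58, adjusted p = 0.0433), a call lost without any 1 library except Foxo1-deficient replicate 3 (0.0640 to 0.156). Pag1, which anchors the Src inhibitor Csk, averaged 21.6 ± 1.51 FPKM in Foxo1-deficient and 8.24 ± 1.14 in DZ libraries (1.30, adjusted p = 0.0101). Lat2, a membrane adaptor also found in myeloid cells, was at 84.3, 78.5 and 87.8 FPKM in Foxo1-deficient, 37.1, 37.0 and 26.4 in DZ, and 80.2, 88.2 and 81.6 in LZ libraries. The DZ libraries were the lowest 3, with changes of 1.31 (adjusted p = 0.00178) in Foxo1-deficient cells relative to DZ and -1.30 between DZ and LZ cells (adjusted p = 0.00304). Bank1, a B cell scaffold protein, averaged 21.8 ± 2.09 FPKM in DZ and 43.3 ± 6.90 in LZ libraries (-0.95, adjusted p = 0.0345), a call lost without any 1 of the DZ libraries or LZ replicate 2 or 3 (0.0765 to 0.121).

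Further downstream, Pik3ap1, which links the receptor to PI3K, averaged 76.8 ± 8.56 FPKM in Foxo1-deficient and 45.6 ± 6.55 in DZ libraries (0.74, adjusted p = 0.0336). Rasgrp3, a Ras activator that diacylglycerol recruits, averaged 66.9 ± 5.001 FPKM in Foxo1-deficient and 37.6 ± 6.72 in DZ libraries (0.83, adjusted p = 0.0317). Itpr2, a calcium release channel, averaged 11.7 ± 1.58 FPKM in Foxo1-deficient and 5.04 ± 0.649 in DZ libraries (1.07, adjusted p = 0.0309). These 3 calls were each lost without any 1 of the Foxo1-deficient or DZ libraries, with adjusted p-values of 0.0662 to 0.125 for Pik3ap1, 0.0515 to 0.111 for Rasgrp3 and 0.0717 to 0.116 for Itpr2, and that of Pik3ap1 also without LZ replicate 2 (0.0519) or 3 (0.0504). Nfatc1, a calcium-regulated transcription factor, averaged 16.7 ± 5.06 FPKM in Foxo1-deficient and 31.7 ± 4.07 in DZ libraries (-0.92, adjusted p = 0.0494), a call lost without any 1 library except Foxo1-deficient replicate 1 (0.0694 to 0.167). When only the compared groups were fitted, Cd72, Bank1, Pik3ap1, Rasgrp3, Itpr2, Nfatc1 and, between DZ and LZ cells, Ptprc did not pass (0.0502 to 0.105). With no filter on low values, Pik3ap1 (adjusted p = 0.0871), Rasgrp3 (0.103) and Nfatc1 (0.162) relative to DZ did not pass. Nor did Cd72 relative to LZ (0.261), or Bank1 (0.126) and Ptprc (0.0537) between DZ and LZ cells. A pseudocount of 0.1 ended the calls of Cd72 (0.064) and Nfatc1 (0.0574), and median centring that of Ptprc between DZ and LZ cells (0.071). B lineage scaling ended the calls of Pik3ap1 (0.18, adjusted p = 0.406), Rasgrp3 (0.27, 0.274) and Itpr2 (0.57, 0.0920) relative to DZ and of Bank1 (-0.49, 0.146) and Ptprc (-0.10, 0.662) between DZ and LZ cells. The part in these pathway values of any cells behind the macrophage, neutrophil and erythroid markers of the Foxo1-deficient libraries was not tested. The calls of Cr2, Cd22, Lat2 and Pag1 were kept in every alternative tried and in all 9 omissions of 1 library, but B lineage scaling lowered the changes relative to DZ to 1.53 for Cr2, 0.65 for Cd22, 0.75 for Lat2 and 0.77 for Pag1. Under it Siglecg was at 0.92 (0.0112) and Nfatc1 at -1.47 (0.000840), and between DZ and LZ cells Cd22 was at -0.70 and Lat2 at -0.84.

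**Figure D5:**
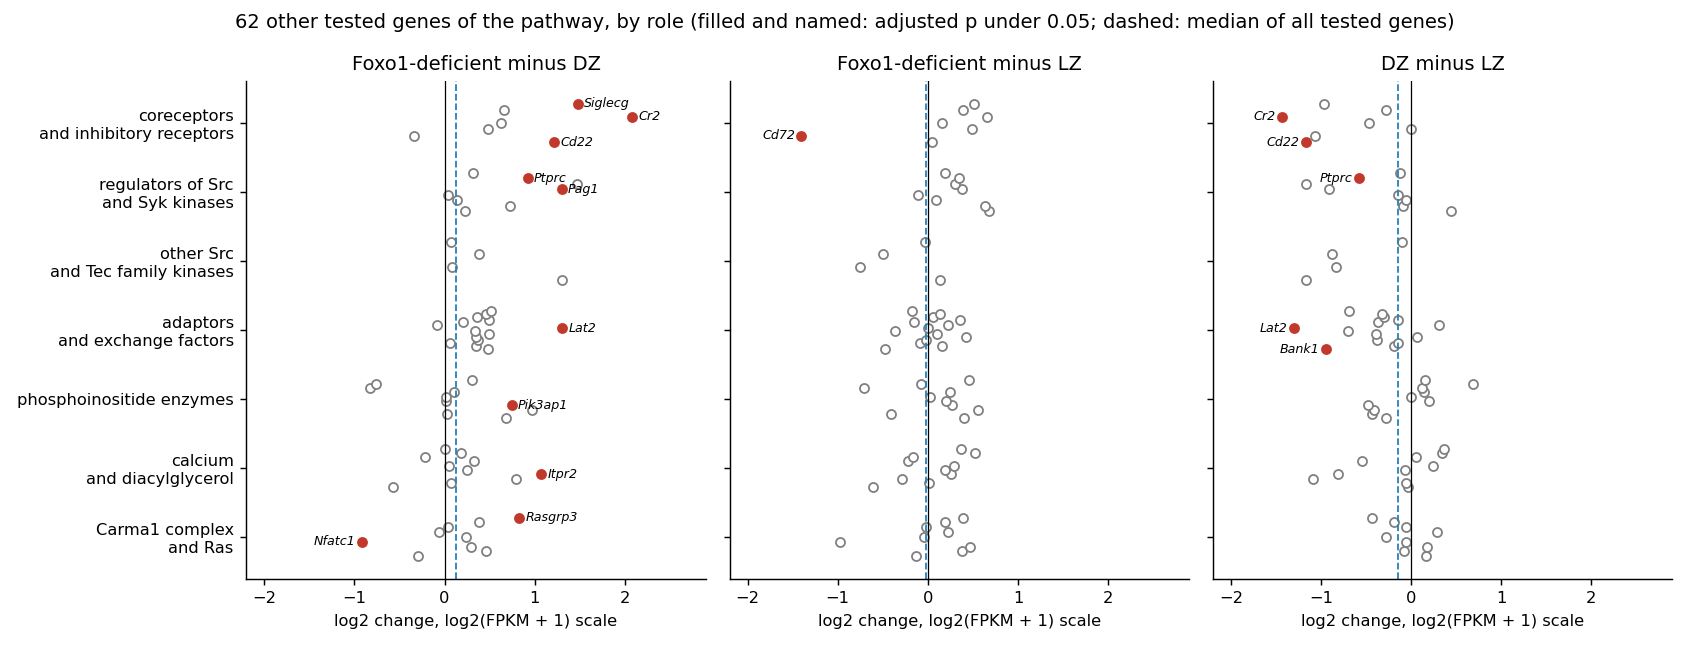
Log2 change of 62 of the 65 tested genes of the wider pathway on the horizontal axis, grouped by role on the vertical axis, in 1 panel per comparison; filled and named points have an adjusted p under 0.05, and the dashed line is the median of all tested genes. The panel of Foxo1-deficient minus DZ cells has 9 filled points to the right of 0 and 1 to the left, and the panel of DZ minus LZ cells has 5, all to the left.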

How the data were processed

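Per the file headers, every library has its own gene table from the authors, which lists FPKM, interval bounds and a status for 23700 entries. TopHat2 2.0.8, Cufflinks 2.1.1 and mm9 are named in the submitters' processing notes; their roles, the strand setting and the total behind the scaling are not stated. TRIzol and an NEBNext Ultra kit served for RNA and libraries, per the labels' protocols. Library depth is not stated; reading the deposited interval as 2 SD of a Poisson count gave a relative depth of 0.836 to 1.103 over 4167 genes, and this covers counting error only.

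Left out were 716 entries of 250 repeated symbols and 7 genes whose status in any library was failed or high data, leaving 22977 genes, of which 10004 reached 1 FPKM in 3 or more of 9 libraries. They were fitted with limma 3.58.1 (R 4.3.3) with an intensity trend on log2(FPKM + 1), on the 3 group means without a replicate block; the pseudocount of 1 understates changes of low genes. The fit was tested on simulated data. Ratios within a library, as differences of log2(FPKM + 1), had exact two-sided permutation tests. Python 3.11.15, numpy 2.4.6, pandas 2.3.3 and matplotlib 3.10.9 were used. Member coordinates are those of the files (mm9), and promoters are RefSeq sequences on GRCm38.p6; no coordinates were converted between builds. The 10 genes, the pathway list and the cell markers were chosen with earlier results of these data known. The text names all 10 genes, Foxo1, Cd86 and Cxcr4, each pathway gene that passed a test, the 3 nearest profiles of each of the 10 that passed, and the highest or defining markers, some of which were picked after their values were seen. Some genes that these rules name are not reported here. Alternatives were other pseudocounts, filters, scalings, fits and omission of each library.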

Additional observations from a re-analysis of the deposited data

How the results depend on the processing

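Of the alternatives, 2 were chosen after seeing the data (the midpoint of the deposited interval and scaling by the summed FPKM of 4 B lineage genes); the cause was not tested for any change below. The 285, 156 and 194 genes that passed (Foxo1-deficient to DZ, Foxo1-deficient to LZ, DZ to LZ) became 166, 59 and 68 with no filter. With a pseudocount of 0.1 or an FPKM minimum of 5, the Foxo1-deficient to LZ count was 99 or 96. With only the compared groups fitted, that count was 58 and the DZ to LZ count 122. B lineage scaling gave 1624 genes from Foxo1-deficient to DZ (139 higher, 1485 lower) and 673 from DZ to LZ (598 higher, 75 lower). The pathway count of 10 relative to DZ was 6 with no filter or only the compared groups, and the DZ to LZ count of 6 was 3 with only the compared groups. The count of 1 relative to LZ was 0 with a pseudocount of 0.1, no filter or only the compared groups, 4 with median centring, 5 with quantile normalization, 2 with the replicate block or interval midpoints, and 3 with B lineage scaling.

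With no filter, Syk (-0.78) and Inpp5d (0.83) no longer passed relative to DZ, nor did Inpp5d (0.83) with only the compared groups. Median centring made Syk relative to LZ pass (-0.65), and quantile normalization made Plcg2 relative to DZ pass (0.59). Signs turned under median centring for Cd79a (-0.0274) and Btk (-0.18) relative to DZ and for Cd79b (0.0245), Blk (0.0115) and Plcg2 (0.0328) between DZ and LZ, and under quantile normalization for Btk relative to DZ (-0.0075). Under B lineage scaling relative to DZ, Cd79a (-0.42) and Btk (-0.56) turned and passed, Blnk (-0.36) and Ptpn6 (-0.0844) turned without passing, Syk, Cd79b (-0.60), Lyn (-0.60) and Blk (-0.69) passed, and Inpp5d (0.28) did not. Under it, relative to LZ, Syk passed (-0.75) and Btk turned (-0.0177). Between DZ and LZ it turned Cd79a (0.23), Cd79b (0.31), Blk (0.29), Plcg2 (0.31) and Inpp5d (0.0710), and Syk (0.60) and Blnk (0.53) passed. Ms4a1, which enters that scaling, was itself higher in Foxo1-deficient than in DZ cells (0.73, limma adjusted p = 0.00846). The summed FPKM of the 4 genes was 1415, 1155 and 1203 in Foxo1-deficient, 882, 924 and 734 in DZ, and 1204, 1241 and 1077 in LZ libraries. The scaling itself therefore raises DZ values relative to both other groups.

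Leaving out 1 library gave 119 to 245, 41 to 141 and 73 to 215 genes (Foxo1-deficient to DZ, Foxo1-deficient to LZ, DZ to LZ), the first being 119 to 149 without any Foxo1-deficient or DZ library, and pathway counts of 6 to 9, 0 to 2 and 3 to 7. Changes relative to DZ ran from -0.87 to -0.68 for Syk, 0.70 to 0.97 for Inpp5d, -0.15 to 0.0625 for Cd79b, -0.12 to 0.10 for Lyn and -0.0759 to 0.15 for Btk. Relative to LZ they ran from -0.19 to 0.0237 for Cd79a, -0.0008 to 0.23 for Btk and -0.15 to 0.0565 for Ptpn6, and between DZ and LZ from -0.0193 to 0.13 for Blnk. The log2 ratio of Cd79b to Cd79a ran from -0.18 to 0.0190 relative to LZ and from -0.0080 to 0.20 between DZ and LZ, and that of Lyn to Blk from -0.0472 to 0.20 relative to DZ.

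The labels do not say whether equal replicate numbers mark paired samples. Deviations of the 9 same-numbered pairs correlated at -0.067 to 0.075, and 0 were over 0.1. Those of the 18 other pairs between groups correlated at -0.112 to 0.05. Correlations this weak cannot show whether or not the samples were paired. With the replicate block, 221, 137 and 161 genes passed, and no call of the 10 genes changed; Pik3ap1 (adjusted p = 0.0532), Rasgrp3 (0.0538) and Itpr2 (0.0645) relative to DZ, and Bank1 (0.0611) and Ptprc (0.0506) between DZ and LZ, no longer passed.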

Other observations

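The Src and Tec family kinases outside the 10 genes were expressed at lower levels, and none of the 5 passed a test in any comparison. Fyn was at 14.9, 16.4 and 11.3 FPKM in Foxo1-deficient libraries, 13.6, 11.7 and 14.5 FPKM in DZ libraries and 23.2, 24.6 and 25.1 FPKM in LZ libraries. The LZ libraries were the highest 3, with changes of -0.75 in Foxo1-deficient cells relative to LZ (95% interval -1.18 to -0.32, adjusted p = 0.0941 by limma) and -0.83 in DZ cells relative to LZ (-1.26 to -0.40, adjusted p = 0.0599). Lck was at 14.6, 17.7 and 24.8 FPKM in Foxo1-deficient libraries, 12.9, 10.8 and 19.9 FPKM in DZ libraries and 27.4, 26.7 and 26.2 FPKM in LZ libraries, again with the LZ libraries highest. Groups did not overlap for 17.5% of tested genes between Foxo1-deficient and LZ cells and for 22.3% between DZ and LZ cells. Tec averaged 24.3, 23.2 and 25.0 FPKM in Foxo1-deficient, DZ and LZ libraries. Fgr averaged 4.20 FPKM in Foxo1-deficient libraries, 1.04 FPKM in DZ libraries and 3.50 FPKM in LZ libraries.

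Fcgr2b, the inhibitory Fc receptor that recruits SHIP-1, averaged 53.9 FPKM in Foxo1-deficient libraries, 33.4 FPKM in DZ libraries and 41.2 FPKM in LZ libraries. Its change relative to DZ was 0.66 (0.25 to 1.07, adjusted p = 0.0950) and did not pass. Csk, the kinase that inhibits Src kinases, averaged 133, 130.1 and 143 FPKM in Foxo1-deficient, DZ and LZ libraries, with a change relative to DZ of 0.04 (-0.29 to 0.37, adjusted p = 0.928).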
